A study of Mus musculus with 4 samples.

Results

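The Bcl2 family regulates the mitochondrial route to apoptosis, and 10 of its genes were followed in IMS/N hepatic stellate cells treated with the cytokine IL17A, with medium from adipose tissue-derived stem cells (ADSC medium), or with both. The genes were Bcl2, Bcl2l1, Mcl1, Bcl2l11, Bmf, Bid, Bad, Bak1, Bik and Hrk, and their probes were taken by the gene name that the array files give. All 10 were on the array, with 21 probes among 41106 and 10 of 26704 gene names. Of these probes, 17 were well above background on all 4 arrays, 3 were not on any array, and 1 was above background on some.

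IMS/N is a hepatic stellate line derived from normal mice of strain 129/Sv and immortalized with SV40, and every group in the study was this line. The SV40 large T antigen is known to bind p53, an activator of several BH3-only genes, and this holds for treated and untreated cells alike. Of the 4 groups, 1 was left untreated, 1 received recombinant murine IL17A, 1 received ADSC medium, and 1 received IL17A and ADSC medium, with 1 sample and 1 array each. The ADSCs behind the medium came from inguinal subcutaneous fat of male C57BL/6J mice aged 8 to 10 weeks. Doses, times and a control medium are not given in the sources used here. The array held 60-base probes and was read in 1 colour, and values are log2 levels after quantile normalization over the 4 arrays. With 1 array a group there is no replicate check on a difference between 2 groups, and "higher" and "lower" between 2 groups describe 2 arrays.

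Between 58.1% and 60.5% of spots were well above background on each array, and no spot was saturated. The untreated and IL17A arrays shared slide 1 and scan 1 and the 2 medium arrays shared slide 2 and scan 2, so medium and slide cannot be told apart. The label check gene Il6, an inflammatory IL17A target, was higher with IL17A by 6.76 without medium and by 5.48 within it. Of 9 stellate and fibroblast markers, 5 were above background on all 4 arrays, among them Vim, Col1a1 and Acta2, whereas the defining stellate gene Reln was dim on every array and Lrat was above background on 1. The summed linear level of these markers ran from 72100 with both treatments to 126000 in untreated cells. The hepatocyte genes Alb, Apoa1 and Apob were dim on every array, as were the fat cell genes Adipoq, Plin1 and Lep. Of 4 endothelial genes, Pecam1 and Cdh5 were dim on every array. The other 2 were low but above background on all 4 arrays, Stab2 from 3.58 to 3.85 and Kdr from 3.31 to 4.03. Of 3 bile duct markers, Epcam was dim on every array and Krt19 and Krt7 were above background on all 4, and their summed level was 705 in untreated cells, 282 with IL17A, 690 with medium and 165 with both. The fat cell sum, from Fabp4 above all, ran from 124 to 338 and was highest with IL17A. The macrophage sum ran from 60.2 to 101, highest with both treatments, with Cd68 above background on all 4 arrays and Adgre1 and Clec4f dim. Ptprc was above background on 1 array, that with both treatments, at 3.73. The part that these marker levels play in the values below was not tested.

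Bcl2 family proteins meet at the outer mitochondrial membrane. Bcl2, Bcl2l1 (Bcl-xL) and Mcl1 protect cells by holding the other members. Bak1 forms the pore that lets cytochrome c out. The BH3-only proteins, here Bcl2l11 (Bim), Bmf, Bid, Bad, Bik and Hrk, start the process by filling the groove of the protective proteins or by activating the pore formers directly. In the liver, apoptosis of activated stellate cells is known as a route by which fibrosis resolves, and in human stellate cells high Bcl2 has been linked to resistance to it.

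The probe sequences below show what the array read. The Bcl2, Bcl2l11 and Bmf probes are shown because the results turn on how the probes of these genes compare, and the Bak1 probe to set its BH1 stretch beside that of Bcl2. The Bcl2 and Bak1 probes lie in the region coding for the BH1 domain, part of the groove, and the first Bcl2l11 probe covers the core of the BH3 domain that enters the groove. Capitals mark the 6 bases of the phenylalanine and glycine codons shared by both BH1 domains, and the 6 bases of the glycine and aspartate codons of the BH3 core. The second Bcl2l11 probe and the Bmf probe have no capitals.
Bcl2 BH1 probe: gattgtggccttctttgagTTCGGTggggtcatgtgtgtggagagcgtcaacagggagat
Bak1 BH1 probe: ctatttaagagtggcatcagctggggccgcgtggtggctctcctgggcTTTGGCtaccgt
Bcl2l11 BH3 probe: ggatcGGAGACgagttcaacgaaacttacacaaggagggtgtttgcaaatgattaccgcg
Bcl2l11 junction probe: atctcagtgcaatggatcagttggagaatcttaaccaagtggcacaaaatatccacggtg
Bmf coding probe: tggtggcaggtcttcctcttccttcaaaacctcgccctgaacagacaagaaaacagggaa
Their mm9 positions in the files are chr1:108608970-108609029 on the minus strand for Bcl2, chr17:27158232-27158291 on the minus strand for Bak1 and chr2:118358312-118358371 on the minus strand for Bmf. The Bcl2l11 BH3 probe runs over chr2:127972893-127983988 and the junction probe over chr2:127954736-127955417, both on the plus strand. Those spans of 11096 and 682 bases are longer than the 60 bases of a probe, so each probe crosses an intron.

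Bcl2l11, which encodes the BH3-only protein Bim, was higher with IL17A by all 3 of its probes, with and without ADSC medium. Its brightest probe, at chr2:127988051-127988110 on the plus strand and downstream of the other 2, had a log2 level of 8.70 in untreated cells, 10.21 with IL17A, 9.35 with the medium and 10.77 with both. Both IL17A arrays were above both arrays without IL17A. The difference was 1.51, or 2.86-fold, without medium and 1.42, or 2.68-fold, within it, each with a scanner software error of about 0.20, and that error holds no variation between cultures. The BH3 probe was at 5.34 in untreated cells, 7.43 with IL17A, 6.12 with the medium and 7.28 with both. By this probe IL17A made a difference of 2.09 without medium and 1.17 with it. The junction probe, which reads transcript variant 4 per the files, was at 3.27, 4.68, 3.48 and 4.52 in the same order. It gave 1.41 without medium and 1.05 with it, with software errors of 0.315 and 0.283. Its levels were under 5, where repeated spots of other probes had an SD of 0.36 with no filter on background. By each of the 3 probes the lower IL17A array was above the higher array without IL17A.

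The probes parted over the medium. Adding medium to IL17A gave 0.56 by the brightest probe, -0.14 by the BH3 probe and -0.16 by the junction probe. Medium alone gave 0.65, 0.77 and 0.21. The difference of the IL17A differences, with minus without medium, was -0.09, -0.92 and -0.36 in the same order. Over 14487 genes well above background on all 4 arrays, each read by its brightest probe, 90% had a difference of differences under 0.677 in size. Of the Bcl2l11 probes only the BH3 probe, a dimmer one, lay beyond that. So did a dimmer probe each of Bcl2l1 (-0.732), Bad (-0.682) and Bcl2 (1.27). The remaining member probes well above background on all 4 arrays did not. In the authors' deposited table of probes higher with IL17A than in untreated cells, which holds 861 probes, the brightest Bcl2l11 probe is listed and the BH3 and junction probes are not.

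**Figure D1:**
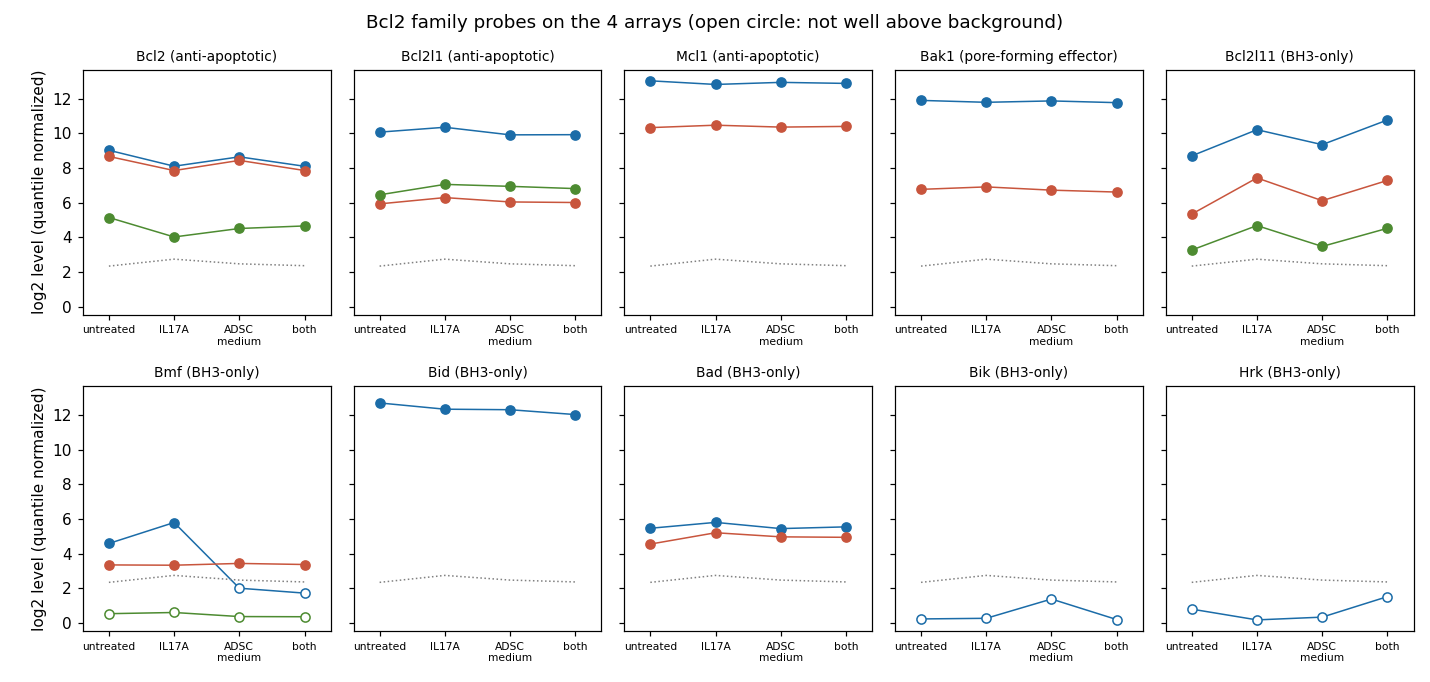
Log2 level after quantile normalization of each probe of the 10 genes (1 line per probe, blue for the brightest), with the 4 arrays on the x axis, open circles for spots not well above background and a dotted line for the lowest level well above background on each array. The 3 Bcl2l11 probes go up on the IL17A array and on the array with both treatments, 2 of the 3 Bcl2 probes go down on those arrays, and Bik and Hrk stay below the dotted line.

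Bcl2, the founding protective member, went the other way from Bcl2l11. Its brightest probe, at chr1:108434793-108434852 on the minus strand, was printed as 10 spots, which gave a mean log2 level of 9.02 in untreated cells, 8.10 with IL17A, 8.65 with the medium and 8.10 with both. Spots ran from 8.79 to 9.19 in untreated cells (SD 0.119 over 10 spots) and from 8.05 to 8.19 with IL17A (SD 0.059 over 8 spots, the others being flagged as outliers). With medium they ran from 8.58 to 8.78 (SD 0.063) and with both from 7.92 to 8.21 (SD 0.079), over 10 spots each. Spots with and without IL17A did not overlap, either with or without medium. These spots repeat the measurement and not the culture.

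The Bcl2 difference for IL17A was -0.92 (1.89-fold lower) without medium and -0.55 (1.46-fold lower) within it. The BH1 probe gave -0.82 and -0.58. In untreated cells it stood at 8.67, and it stood at 7.85 with IL17A, 8.44 with medium and 7.86 with both. Neither probe reached the 2-fold rule used to count genes, by which a log2 difference had to be 1 or more in size with the brighter array well above background. The dimmest probe, at chr1:108607310-108607369 and matched to an Ensembl transcript only, was at 5.15 in untreated cells, 4.02 with IL17A, 4.51 with medium and 4.66 with both. It passed the rule without medium at -1.12 and was at 0.15 within medium, apart from the other 2 probes. When medium was added to IL17A, the difference was -0.004 by the brightest probe and 0.003 by the BH1 probe.

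**Figure D2:**
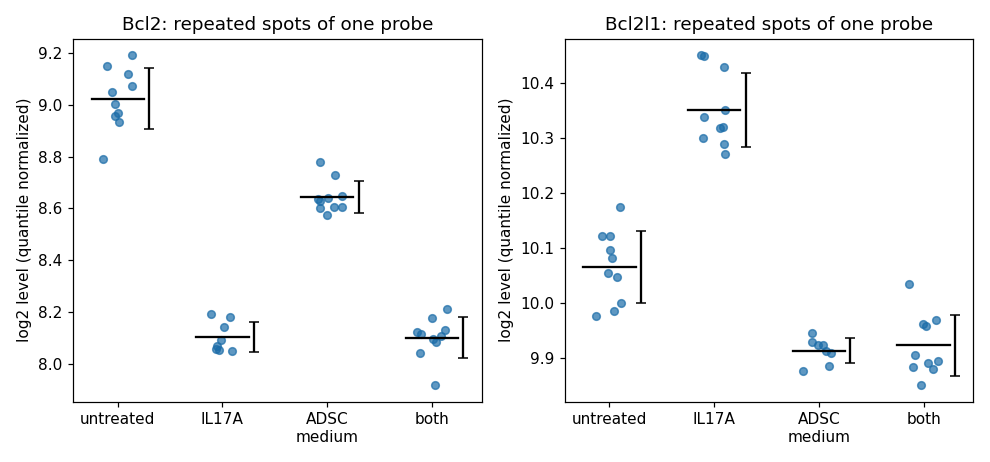
Log2 levels of the repeated spots of the brightest Bcl2 probe (left) and the brightest Bcl2l1 probe (right) on the 4 arrays; points are spots, horizontal lines are means and vertical bars are the SD over spots. The Bcl2 spots with IL17A, alone or with medium, lie at 8.21 or below and those without IL17A at 8.58 or above, while the Bcl2l1 spots of the IL17A array, from 10.27 up, lie above all others.

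Bcl2l1, which encodes Bcl-xL, had a mean of 10.07 in untreated cells, 10.35 with IL17A, 9.91 with the medium and 9.92 with both, by a probe of 10 spots at chr2:152606631-152606690. The IL17A array alone stood above the others, with its lowest spot at 10.27 and the highest untreated spot at 10.17. IL17A made a difference of 0.29 without medium and 0.01 within it. The other 2 Bcl2l1 probes gave 0.36 and 0.60 without medium and -0.03 and -0.13 within it. No Bcl2l1 difference passed the 2-fold rule. All 3 probes were lower when medium was added to IL17A, by -0.43, -0.28 and -0.24.

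Mcl1 encodes a short-lived protective protein. Its brighter probe was at 13.03, 12.82, 12.94 and 12.88 in untreated, IL17A, medium and both, and its dimmer probe at 10.33, 10.47, 10.36 and 10.40. Across the 5 comparisons the brighter probe lay between -0.22 and 0.06 and the dimmer one between -0.07 and 0.14, and the probes differed in sign in each comparison.

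Bak1, the pore former, also moved little. Its brighter probe was at 11.90, 11.79, 11.87 and 11.77 in untreated, IL17A, medium and both, and its BH1 probe at 6.77, 6.91, 6.72 and 6.61. No Bak1 difference exceeded 0.30 in size.

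Bid, which is cut by caspase-8 and so joins death receptors to the mitochondrial route, was high in untreated cells at 12.69. It was at 12.33 with IL17A, 12.30 with the medium and 12.02 with both, so each treatment went with a lower level and both together with the lowest. The differences from untreated cells were -0.37, -0.39 and -0.68, each against a software error of about 0.20. Bid has 1 probe, at chr6:120843464-120843523 on the minus strand.

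Bad, which is held inactive by phosphorylation and 14-3-3 binding, had low levels that were well above background on all 4 arrays. The probe matched to its RefSeq transcript was at 4.55, 5.20, 4.97 and 4.94 in untreated, IL17A, medium and both. Its largest difference was 0.65, for IL17A without medium, and within medium it was -0.03. The brighter probe that carries the name Bad lies on the minus strand at chr19:7025594-7025653, whereas RefSeq places Bad on the plus strand, so it is uncertain what it reads. That probe was at 5.46, 5.80, 5.44 and 5.54. No difference of either probe passed the 2-fold rule.

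Bmf, a BH3-only protein tied to the cytoskeleton through dynein light chains, gave a different answer by each probe. The probe furthest downstream, at chr2:118354519-118354578 on the minus strand, was at 4.59 in untreated cells and 5.79 with IL17A. On the 2 medium arrays it was not well above background, at 2.01 with medium and 1.72 with both. Hence it was 2.31-fold higher with IL17A, at least 4.32-fold lower with medium alone, and at least 10.8-fold lower with both treatments than with IL17A. None of these 3 passed the 2-fold rule under normexp background correction, an alternative that gave log2 differences of 0.52, -0.39 and -0.93. For such bounds the dim array was set to its lowest level well above background over all probes, or to the probe's own value where that was higher. The coding probe, near 3.35 on every array (3.35, 3.33, 3.43 and 3.37), differed by no more than 0.09 in size in any comparison. The third Bmf probe was dim on every array. The downstream probe is the only member probe in both of the authors' deposited tables, the list of 861 probes and the list of 1193 probes higher with IL17A than with IL17A plus medium. The Bmf result thus rests on 1 of 3 probes, and the other measured probe did not share it. That coding probe was not far above the lowest levels well above background, 2.34 to 2.74. Its differences had software errors of 0.31 to 0.33, so its flat reading is a limited check.

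Bik and Hrk, BH3-only genes mostly known from epithelial and neuronal cells, were not well above background on any array. The single Bik probe had levels of 0.23, 0.27, 1.38 and 0.20 and the single Hrk probe 0.80, 0.18, 0.34 and 1.52 in untreated, IL17A, medium and both. The lowest levels well above background on these arrays were between 2.34 and 2.74, so neither gene has a fold change here.

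**Figure D3:**
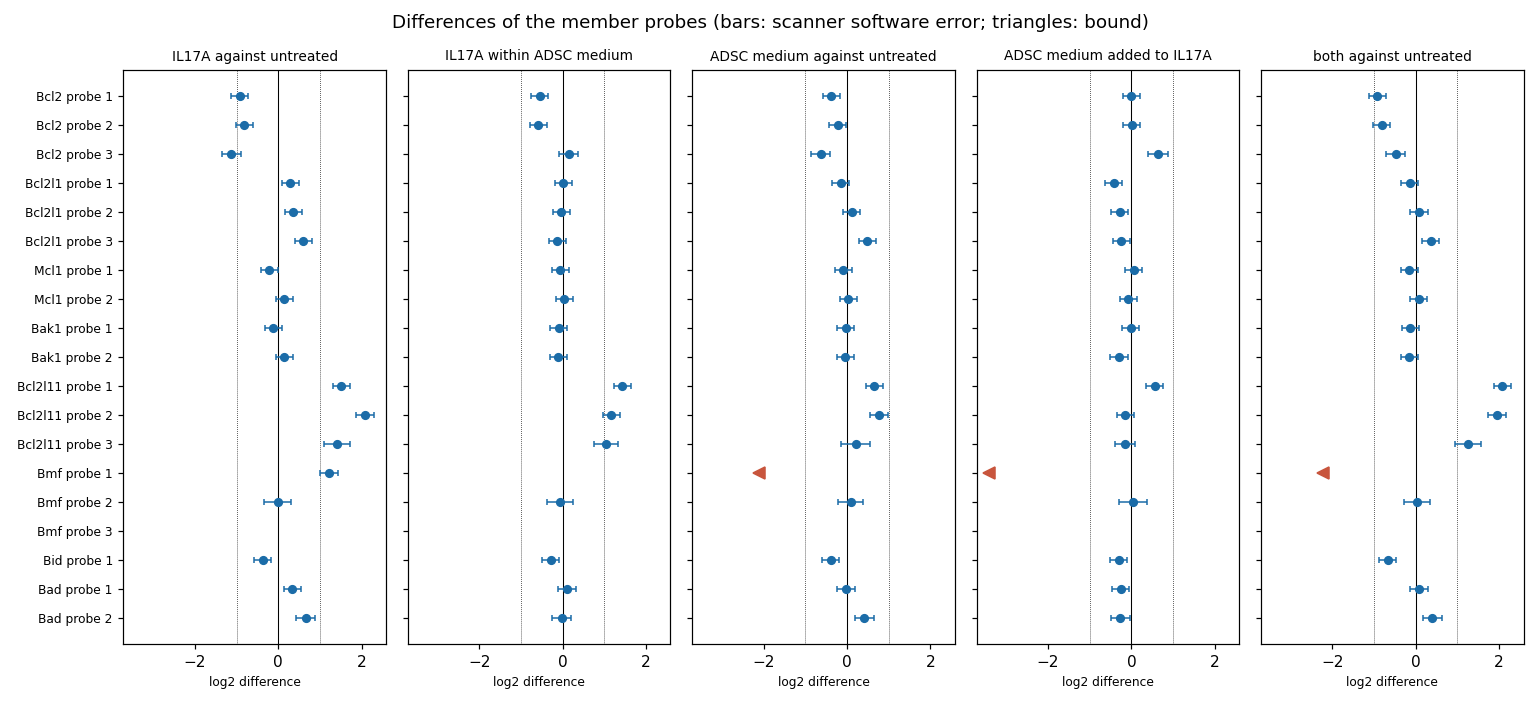
Log2 differences (x axis) of each probe of the 8 detected genes, probe 1 being the brightest, in the 5 comparisons, with bars for the scanner software error and red triangles for bounds where the dim array was set to its detection level. The 3 Bcl2l11 probes lie above 1 in both IL17A panels and in the panel of both treatments, and of the Bmf probes only the brightest is far from 0.

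Counted by the brightest probe of each gene, 2 of 8 measured members, Bcl2l11 and Bmf, passed the 2-fold rule on the higher side for IL17A against untreated cells and 0 on the lower side. Of all genes measured there, 2.17% were higher and 2.29% lower. Within ADSC medium, 1 of 7 members was higher with IL17A, namely Bcl2l11, and 0 were lower, where 2.86% of all genes were higher and 1.82% lower. Bmf was the 1 member of 8 that passed for medium against untreated cells and for medium added to IL17A, lower in each, where 2.97% and 3.11% of all genes were lower and 2.45% and 3.22% higher. Both treatments against untreated cells left Bcl2l11 higher, by 4.21-fold, and Bmf lower, and 3.38% and 4.28% of all genes passed in those directions. The lower Bmf calls are bounds by the downstream probe, which was admitted by the arrays where it was high. They are therefore no support for a medium effect, and the medians for those comparisons include them. The median difference of the measured members was 0.084 for IL17A alone and -0.060 for IL17A within medium, against -0.002 and -0.030 over all genes. It was -0.12 for medium against untreated cells, -0.14 for medium added to IL17A and -0.15 for both treatments, against 0.040, 0.026 and 0.030 over all genes. With 7 or 8 members measured, a count of 1 or 2 is small, and whether the family differs from other genes was not tested. The comparisons share arrays: the untreated array enters 3 of the 5, and the IL17A array enters 2, and the pair of IL17A differences shares none.

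The 2 IL17A differences were joined in an additive fit with limma, which has 1 residual degree of freedom per gene. Its spread joins how far the gene's 2 differences part with a prior drawn from other genes of like level, and the prior weighs more, with a median of 5.75 degrees of freedom. It was fitted to 15479 genes, of which 2.54% passed as higher with IL17A and 3.79% as lower at an adjusted p under 0.05. Of 8 members fitted, 1 rose and 2 fell. Bcl2l11 rose by 1.47 (SE 0.075, limma adjusted p = 0.00034), 5 of 7 alternative settings kept the call, and the adjusted p ranged from 1.16e-05 to 0.35. Bcl2 fell by 0.73 (SE 0.12, limma adjusted p = 0.018), but the call was kept in only 2 of 7 alternatives, and the adjusted p ranged from 0.0033 to 0.37. Bid fell by 0.33 (SE 0.056, limma adjusted p = 0.021), again in 2 of 7 alternatives, with an adjusted p from 0.0073 to 0.39. Over the same alternatives the Bcl2 value stayed between -0.73 and -0.62 and the Bid value between -0.34 and -0.30. Bcl2l1 (0.15, limma adjusted p = 0.45), Mcl1 (-0.14, 0.28), Bak1 (-0.11, 0.38) and Bad (0.22, 0.69) did not pass. Bmf did not pass either, but its fitted value is not given. It joins the measured difference without medium with 2 levels that were not well above background, so it does not show a lack of response. The Bad value and the counts above use the probe on the opposite strand, and with RefSeq probes only the Bad value was 0.31 (limma adjusted p = 0.53). In a bulk RNA sample, fewer cells of a type and less RNA per cell cannot be told apart.

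The medium term of the same fit also holds the slide. There 9.66% of all genes passed as higher and 8.9% as lower, against 1 and 2 of the 8 members. Bcl2l11 was higher by 0.60 (SE 0.075, limma adjusted p = 0.0040), a value from its brightest probe that dropped to 0.32 with an adjusted p of 0.37 when probes were averaged. Bid was lower at -0.35 (SE 0.056, limma adjusted p = 0.0089), with the call kept in 4 of 7 alternatives and an adjusted p up to 0.21. The other lower member was Bmf, by its downstream probe, which entered the fit through the 2 arrays without medium and was not well above background on the others. Its fitted value is therefore not given, and the bounds above stand in its place. The filter admitted this probe by the arrays where it was high. Its call, counted among the 2 lower members, is therefore no support for a medium effect. Bcl2l1 was at -0.29 (limma adjusted p = 0.062).

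**Figure D4:**
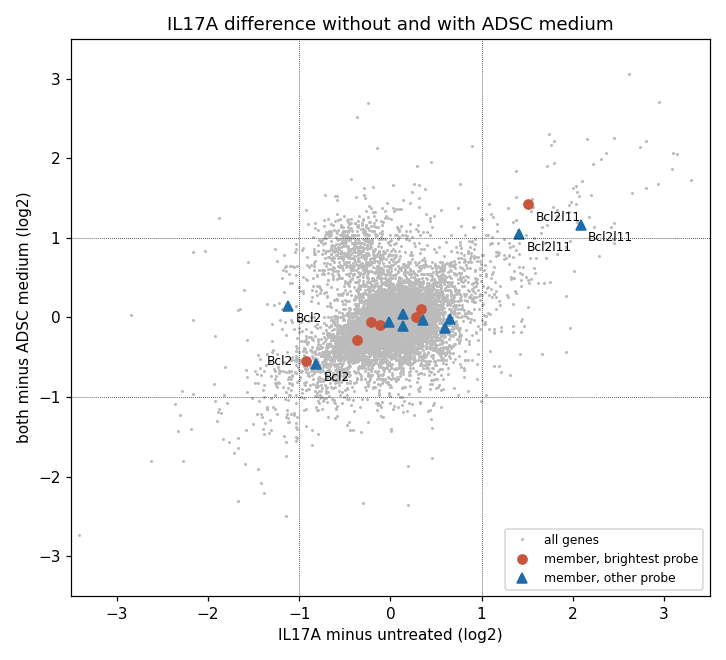
Log2 difference with IL17A without medium (x axis) and within ADSC medium (y axis) for 14487 genes well above background on all 4 arrays (grey), with member probes in red (brightest) and blue (others) and dotted lines at a difference of 1; 20 genes beyond 3.5 on either axis are not drawn. The 3 Bcl2l11 probes lie beyond 1 on both axes, and 2 of the 3 Bcl2 probes lie below 0 on both.

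Other genes of the family and pathway were read from 4 lists. Of 15 further Bcl2 family genes, 13 were on the array and 10 were measured for IL17A against untreated cells. Bcl2l15, a little-studied member, was the single one past the 2-fold rule, higher by 1.40 without medium and 1.09 within it. Of all genes, 2.17% and 2.86% were higher in those comparisons. In the fit Bcl2l15 rose by 1.25 (limma adjusted p = 0.0035, kept in 5 of 7 alternatives). The median of the 10 was 0.15 without medium, against -0.002 over all genes. There were 11 fitted, of which 1 rose and 1 fell with IL17A, against 2.54% and 3.79% of all genes. Bok, a pore former, fell by 0.48 (limma adjusted p = 0.011, kept in 3 of 6 alternatives), from 11.45 to 10.88 without medium and from 11.82 to 11.43 within it. Bax, the partner of Bak1 in pore formation, stayed between 11.05 and 11.28 on the 4 arrays. Bnip3, a mitophagy receptor, was at 0.64 with IL17A alone and -0.27 within medium, and Pmaip1 (Noxa) was dim on both arrays without medium.

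Downstream of the pore, 0 of 11 genes of the caspase cascade and 0 of 6 caspase inhibitors passed the 2-fold rule in any of the 5 comparisons. Between 1.82% and 4.28% of all genes passed in each direction in a comparison, so 0 among so few genes is near that share. Casp9, the initiator caspase of the mitochondrial route, fell by 0.50 with IL17A (limma adjusted p = 0.036) and Casp8, the initiator of the death receptor route, by 0.34 (limma adjusted p = 0.049), each kept in 2 of 7 alternatives with an adjusted p up to 0.39. No other gene of the 11 passed for IL17A, and 0 of the 6 inhibitors did. Of all genes fitted, 2.54% passed as higher with IL17A and 3.79% as lower. The median IL17A difference without medium was -0.052 for the cascade and 0.10 for the inhibitors, against -0.002 over all genes. For the medium term, the caspase-8 inhibitor Cflar was at 0.53 (limma adjusted p = 0.010), kept in 3 of 7 alternatives with an adjusted p up to 0.24.

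Of 17 partners and regulators of Bcl2 family proteins, 0 passed for IL17A in the fit, where 2.54% of all genes were higher and 3.79% lower. Foxo3, a transcription factor known to act on Bcl2l11, was at 3.39 in untreated cells, 4.48 with IL17A, 3.51 with medium and 3.55 with both. Its difference with IL17A was 1.09 without medium and 0.04 within it, and its other probe was dim on every array. Repeated spots of other probes had an SD of 0.36 over all levels under 5, with no filter on background. Foxo1 was at -0.01 and 0.07 for IL17A, and at 0.46 for the medium term (limma adjusted p = 0.015). The stress kinase gene Mapk8 passed the 2-fold rule within medium at 1.05 by a probe matched to an Ensembl transcript, while a RefSeq probe of the same gene was at 5.32 with medium and 5.15 with both. In the fit neither Foxo3 (limma adjusted p = 0.58) nor Mapk8 (0.54) passed for IL17A. Over the 17 genes the median IL17A difference was -0.016 without medium and 0.035 within it, against -0.002 and -0.030 over all genes.

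The 5 genes whose centred levels over the 4 arrays lay nearest to those of Bcl2l11, among 12069 named genes above background on all 4, were Ptgs2, Bcl2l15, Cck, Gfpt2 and Tbx3. Their root mean square distances were 0.13, 0.15, 0.16, 0.17 and 0.18 on the log2 scale. Ptgs2, the inducible cyclooxygenase, was at 8.49 in untreated cells, 10.32 with IL17A, 9.35 with medium and 10.62 with both. With only 4 arrays many profiles look alike, and these distances are a description.

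RefSeq promoter windows on GRCm38.p6, from 250 bases before to 50 after a start, were found for 9 of the 10 members, 15 windows in all. Their median GC content was 63.3%, against 52.7% over 32851 windows, and their median number of CG pairs 22, against 7. Bcl2 had the most CG pairs of the 15, at 44, and Bcl2l1 the fewest, at 1 in its window at chr2:152828440-152828739. The letters TGTTTAC, the core bound by FOXO factors, were searched on both strands and found in 1 of the 15 windows and in 3.65% of all windows. That window belongs to Bcl2l11, at chr2:128125788-128126087 on the plus strand, and is printed because Bcl2l11 is the member that rose with IL17A and Foxo3 is on the list of regulators. Capitals mark the match, which starts 227 bases before the transcript start and reads GTAAACA, the reverse complement.
Bcl2l11 promoter: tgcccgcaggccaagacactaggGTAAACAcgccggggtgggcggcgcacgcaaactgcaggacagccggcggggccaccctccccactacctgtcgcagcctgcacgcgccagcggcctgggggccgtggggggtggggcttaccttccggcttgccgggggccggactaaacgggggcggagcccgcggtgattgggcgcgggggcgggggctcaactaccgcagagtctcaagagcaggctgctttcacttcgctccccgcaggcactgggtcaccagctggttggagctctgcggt
The same window held the EGR letters GCGGGGGCG, found in 2.91% of all windows. The C/EBP letters TTGCNNAA were in 3 member windows, those of Bmf (in 2) and Bid, and in 10.8% of all windows. The NF-kB motif and the AP-1 letters TGANTCA were in 0 of the 15, against 1.47% and 7.81% of all windows. The FOXO and EGR matches do not overlap. A match is a run of letters and not a bound site, and these data hold no measurement of binding.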

How the data were processed

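The authors deposited 1 scanner file per sample, with a linear intensity for each spot that Feature Extraction 12.1.1.1 had corrected for background and spatial trend, per the file headers. Mean and background intensity and a software error stand beside it, and spot quality is given in deposited score columns that hold 0 or 1. Probe positions are on mm9, per the file headers. Cy3 was the label used, per the labels. The series design text names quantile normalization, and R 3.5.1 appears in the submitters' processing notes. Both deposited lists of the authors are probe IDs without values, and the threshold behind them is not stated.

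After removal of control spots and of 91 to 126 outlier spots an array, log2 signals were quantile normalized, spots of a probe averaged, and each gene represented by the probe with the highest mean. The members' spread between spots was set beside that of 245 replicated probes, whose SD was 0.36 on the log2 scale for levels under 5 and 0.060 for levels over 7. The additive model had an IL17A term and a medium term and was fitted in limma 3.58.1 under R 4.3.3 (lmFit, then eBayes with a mean trend). It took in genes well above background on 2 or more arrays and adjusted p-values by Benjamini-Hochberg over all of them. Python 3.11.15 and pandas 2.3.3 made the tables. The number of arrays limits the precision.

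All 10 members were described with every probe. From each pathway list the text could name up to 5 genes with the largest difference and any past the 2-fold rule, and the 5 genes nearest to Bcl2l11. Bax was added after its values were seen. A result for 1 listed gene is not reported here. Members, lists and motifs were chosen with earlier results of these data known. The alternatives tried were scaling to the 75th percentile, normexp correction (offset 50), a filter requiring all 4 arrays, no filter, averaging a gene's probes, RefSeq probes only, and no mean trend in eBayes.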

Additional observations from a re-analysis of the deposited data

Results flagged for a closer look

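A dim Bcl2 probe, the one matched to an Ensembl transcript only, was lower with IL17A without medium (-1.12) and slightly higher within medium (0.15). The response with medium minus that without was 1.27 on the log2 scale, and it stood out because the 2 pairs of arrays went opposite ways. With 1 array a group this difference was not tested. The brightest Bcl2 probe gave 0.38 and the BH1 probe 0.23 for the same quantity. The level of the dim probe was between 4.02 and 5.15. Repeated spots of other probes had an SD of 0.36 over all levels below 5, with no filter on background. The part of this spread in the result was not tested.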

How the results depend on the processing

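No member difference past the 2-fold rule or the fit's threshold changed sign under the alternatives listed, while values near 0 sometimes did. Over single differences of members, 208 values moved by less than the scanner software error and 22 by more. The filter settings reuse the same measured levels, and RefSeq probes change the probe of Bad alone among the members. Many of the 208 were therefore fixed in advance and do not show that the values are robust. In the fit, 88 values for members kept their side of the threshold, 21 lost it and 1 gained it. Most of the 88 belong to terms that had not passed in the main fit. The 21 came from the terms that had passed, 1 higher and 2 lower for IL17A and the same for the medium. Calls of those terms were lost about as often as they were kept. The median of all genes stayed within 0.1 of 0 under every scaling. Each scaling sets the arrays to a like level, so this was largely fixed in advance. Members past the 2-fold rule for IL17A against untreated cells numbered 1 in place of 2, without Bmf, under normexp correction, under the filter on all 4 arrays and with probes averaged. For medium against untreated cells the count was 0 in place of 1 under those 3 settings and 2 without a filter. For medium added to IL17A it was 0 with normexp or the filter on all 4 arrays and 2 without a filter. For IL17A within medium it was 3 in place of 1 without a filter, and for both treatments 1 in place of 2 with normexp or the filter on all 4 arrays.

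All genes past the 2-fold rule numbered 708, 753, 872, 1005 and 1245 for IL17A against untreated cells, IL17A within medium, medium against untreated cells, medium added to IL17A, and both treatments. They were 163, 98, 159, 195 and 305 with normexp, and 2065, 2062, 2296, 2492 and 2666 without a filter. The filter on all 4 arrays gave 408, 435, 474 and 756 for the first 3 comparisons and the last, and RefSeq probes gave 449 for IL17A within medium and 553 for medium added to IL17A. With 75th percentile scaling the split of higher to lower went from 345 and 363 to 263 and 534 for IL17A alone, from 460 and 293 to 724 and 172 within medium, from 394 and 478 to 269 and 654 for medium alone, and from 511 and 494 to 775 and 372 for medium added to IL17A. With RefSeq probes it was 198 and 251 within medium, 344 and 277 for medium alone and 225 and 328 for medium added to IL17A.

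In the additive fit, 980 genes passed for IL17A and 2873 for the medium term. With 75th percentile scaling 141 and 1205 passed, with probes averaged 270 and 1007, and with normexp 489 for IL17A. Without a filter limma passed 0 for either term (2840 and 5525 at an unadjusted p under 0.05), and without a trend 0 (1852 and 3342). The cause of these shifts was not tested. No paired analysis was possible because each group has 1 array and the labels carry no replicate numbers, although the additive fit compares IL17A within each slide. Leaving out a replicate was not possible for the same reason, and slide as a block could not be fitted apart from the medium. Dim probes limit what can be said of Bik, Hrk and Bmf.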
